A study of Danio rerio with 3 samples.

Results

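The miR-17-92 cluster was read on 3 miRCURY LNA arrays, 1 for each of the lin-28a morphants (Lin28A MO), the lin-28b morphants (Lin28B MO) and the control MO-injected zebrafish embryos (Control MO), all wild type AB and collected at 5 hpf. The 8 probes described here were chosen by name from 218 named zebrafish miRNA probes. They are the 6 main arms dre-miR-17a, dre-miR-18a, dre-miR-18b, dre-miR-18c, dre-miR-92a and dre-miR-93, and the 2 star arms dre-miR-17a* and dre-miR-18b*, given below without the species prefix. The morpholinos (MO) are antisense oligonucleotides injected into early embryos, and those against lin-28a and lin-28b block splicing at the donor site between the first and second exon. A morpholino lowers a transcript for a limited time and does not delete the gene, and the sources used here do not give the number of embryos behind each RNA extract. Embryo RNA carried the dye Hy3 and a Universal Reference the dye Hy5, and the Hy3/Hy5 ratio of a spot sets one against the other. The sample labels also mention a blend of all samples in equal parts, and whether this blend is the Hy5 reference is not stated, so what the ratio is relative to is known only by that name. The mRNAs of lin-28a and lin-28b are not probed by a miRNA array, and their knockdown was not checked here. The study itself reported reduced lin-28a and lin-28b transcripts in the morphants by RT-PCR at 5 hpf. Each probe is printed in 4 spots. With 1 array per condition no test was possible and no difference has a replicate check. Every SD below is technical. The SD of a ratio is over the 4 spots of a probe on 1 array. That of a log2 fold is over the 4 spot positions, each paired between a morphant array and the control MO array. The SD of a difference between arms combines the SDs of their 2 log2 folds.

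The miR-17-92 cluster is a polycistron, a single primary transcript that holds several miRNA hairpins, and it is known in mammals for promoting proliferation. Each hairpin yields a duplex of 2 strands. The strand that usually accumulates carries the plain name, and its partner, which is usually degraded, carries the star. The members fall into families of related sequence, namely miR-17 with miR-20 and miR-93, miR-18, miR-19, and miR-92 with miR-25 and miR-363. Lin-28 is an RNA-binding protein best known for blocking the maturation of let-7 precursors. All 6 main arms matched a RefSeq gene (GRCz12tu assembly), and the 17 genes of the cluster and its paralogs lie in 5 loci, taking genes within 5000 bp of each other as 1 locus. One locus of 6 genes holds mir17a-1, mir18a and mir92a-1 beside the genes of miR-19a, miR-19b and miR-20a. A second, of 3 genes, holds mir17a-2, mir18b and mir92a-2. The gene of miR-18c neighbours those of miR-20b, miR-19c and miR-363, and that of miR-93 neighbours those of miR-19d and miR-25. As miR-17a and miR-92a each have 2 genes, their probes cannot tell these 2 loci apart, and the same holds for miR-17a* if both hairpins yield it.

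Only miR-17a* gave a bright signal. Its mean Hy3 signal was 261 with lin-28a MO, 120 with lin-28b MO and 230 with control MO, and it was the only member above 100 on any array, the limit for a high Hy3 signal in the study's methods. The RNA came from whole embryos, so a miRNA present in fewer cells and one at a lower level per cell cannot be told apart. The median signal of the other members lay between 8.05 and 55.6 over the 3 arrays, and no main arm exceeded a mean of 29.2. For scale, the median over the 218 named probes was 15.2, 15.5 and 17.0 on the lin-28a MO, lin-28b MO and control MO arrays. Over the 2082 unnamed probes with 4 spots it was 14.0, 13.6 and 16.1, little lower. The mean Hy3 of miR-18a lay below that unnamed median on every array. That of miR-17a lay below it on the lin-28a MO and control MO arrays. Whether the dim members exceed background was not tested, so their folds need not reflect miRNA levels. The arrays also differed in ways that touch all members. Over 46 unnamed probes above 100 on every array, the lin-28b MO array was dimmer than the control MO array by a median log2 of -1.15 in Hy3 and -0.94 in Hy5, and the lin-28a MO array by -0.31 and -0.28. Dim Hy5 signals were packed into a narrow band on the morphant arrays. A band 10% wide, from 11.6 to 12.8, held 36.5% of 9200 spots on the lin-28a MO array. On the lin-28b MO array the fullest band (10.8 to 11.9) held 29.5% of spots, whereas that of the control MO array (8.44 to 9.28) held 14.2%. Of the 32 member spots, 12, 7 and 2 lay in these bands. The part of this difference in the ratios of dim members was not tested.

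By the rule of the study's methods, no member changed in either morphant. That rule asks for a fold over 1.5 of the mean Hy3/Hy5 ratio and a spot CV under 50%, here with the Hy3 limit of 100 met on either array of the pair. Only miR-17a* could be judged by it, and 0 of 1 members passed in lin-28a morphants, where 44.4% of the 9 miRNAs judged did, and 0 of 1 in lin-28b morphants, where 55.6% of 9 did. Without a Hy3 limit 7 members could be judged, and again 0 of 7 passed in lin-28a morphants (8.61% of 209 miRNAs) and 0 of 7 in lin-28b morphants (6.19% of 210). The remaining member, miR-18b*, had a spot CV of 68.8% on the control MO array. With the median of the 4 spots in place of the mean and no limit on signal or CV, 1 of 8 members, miR-18a, was past 1.5-fold in lin-28a morphants (11.5% of 218 miRNAs, 9.63% being lower as it was), and 0 of 8 in lin-28b morphants (7.80%). The call for miR-17a* in lin-28a morphants turned on the scaling. After centring on the bright unnamed probes or on all named probes its log2 fold of mean ratios was 0.63 or 0.71, past 1.5-fold and higher, but from spot medians centred on the bright unnamed probes it was 0.28. Leaving out spot position 1, 2 or 4 gave 0.67, 0.63 or 0.70, all past 1.5-fold, although without position 1 or 2 the spot CV was over the limit and no member could be judged, and leaving out position 3 gave 0.15. For miR-18a the spot medians centred in this way gave -0.56, no longer past 1.5-fold.

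**Figure D1:**
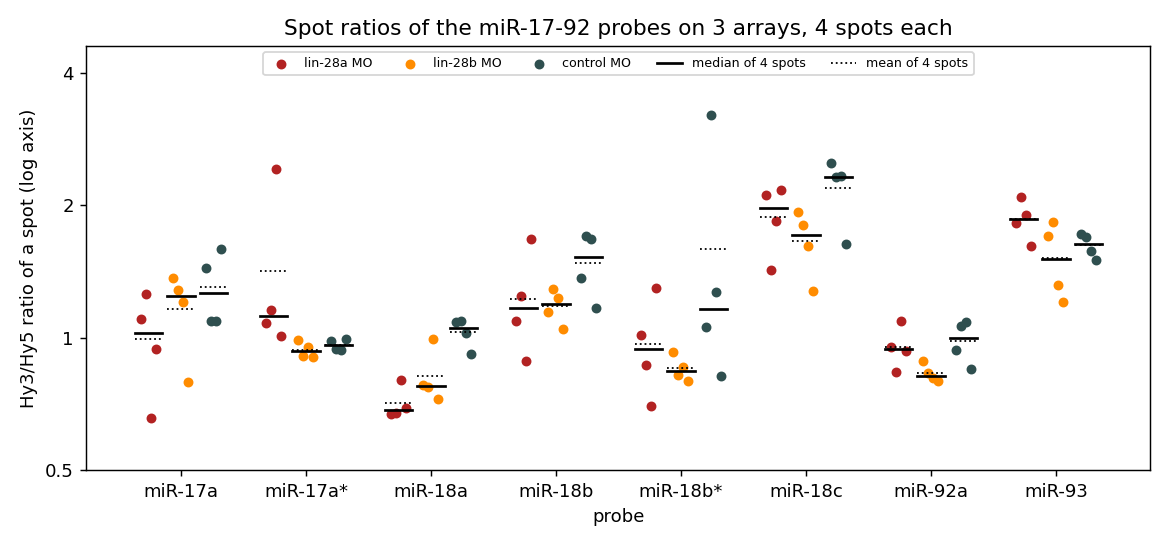
Hy3/Hy5 ratio of each spot (log axis) for the 8 miR-17-92 probes on the lin-28a MO, lin-28b MO and control MO arrays, with the median (solid line) and the mean (dotted line) of the 4 spots. The mean leaves the bulk of the spots at miR-17a* on the lin-28a MO array, where 1 spot is at 2.42, and at miR-18b* on the control MO array, where 1 spot is at 3.20.

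The star arm miR-17a* had a higher mean ratio in lin-28a morphants than in control, and 1 spot supplied most of the difference. Its 4 spots had Hy3/Hy5 ratios of 1.08, 1.15, 2.42 and 1.01 in lin-28a morphants, 0.987, 0.910, 0.954 and 0.902 in embryos with lin-28b MO, and 0.981, 0.943, 0.937 and 0.991 in control. All 4 spots on the lin-28a MO array were above all 4 control spots, which was so for 2.29% of the 218 named probes, whereas the lin-28b MO and control MO spots overlapped. No member's ratios lay wholly above or below control in lin-28b morphants, where 2.29% of probes were above and 13.8% below. From the means, 1.42 ± 0.67 in lin-28a morphants and 0.963 ± 0.027 in control (SD over 4 spots), the log2 fold was 0.56, with an SD of 0.62 over spot positions. From the medians, 1.12 and 0.962, it was 0.22, and without the third spot the means gave 0.15. Over the other 3 positions the log2 fold lay between 0.03 and 0.29. The third spot was the brightest of the 4 in Hy3 and the dimmest in Hy5 on that array.

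The 2 dyes moved differently at miR-17a*. In lin-28a morphants the Hy3 spots read 241, 202, 392 and 209, against 254, 214, 224 and 229 in control, and the ranges overlapped, with medians of 225 and 226.5. The Hy5 spots read 223, 175, 162 and 207 on the lin-28a MO array, all below the 259, 227, 239 and 231 of the control MO array, as for 8.72% of the 218 probes. From spot medians the log2 change was thus -0.01 in Hy3 and -0.30 in Hy5, and from spot means it was 0.18 and -0.32. The 46 bright unnamed probes, from spot means, had medians of -0.31 (quartiles -0.63 and -0.07) and -0.28. In lin-28b morphants both dyes were lower, with Hy3 spots of 157, 98.3, 104 and 120 and Hy5 spots of 159, 108, 109 and 133, and neither range reached that of control (13.3% of probes for Hy3 and 12.4% for Hy5). The log2 changes of miR-17a* there were -1.02 in Hy3 and -0.96 in Hy5 from medians, and -0.94 and -0.91 from means. The bright unnamed probes, again from means, had medians of -1.15 (quartiles -1.66 and -0.72) and -0.94. The ratio of miR-17a* accordingly differed little from control, 0.938 ± 0.040 in lin-28b morphants and 0.963 ± 0.027 in control, a log2 fold of -0.04 (SD 0.07) from means and -0.05 from medians. Centring the arrays on the bright unnamed probes or on all named probes turned this small value to 0.10 or 0.11. Among all 8, no member was above control without overlap in either dye in either morphant (0.459% of probes in Hy3 in both, 17.9% and 12.4% in Hy5), and none was below it in Hy3 in lin-28a morphants (10.6%).

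The main arm miR-17a, the founding member of its family, was dim on every array. Its Hy3 spots read 13.9, 16.0, 13.7 and 11.8 in lin-28a morphants, 16.1, 15.0, 14.1 and 13.9 in embryos with lin-28b MO, and 16.7, 14.7, 13.4 and 14.6 in control, and the 3 ranges overlapped. The Hy5 spots of this probe were 12.6, 12.7, 20.8 and 12.5 in lin-28a morphants, 11.8, 11.7, 11.7 and 17.5 in embryos with lin-28b MO, and 11.6, 13.5, 12.3 and 9.20 in control. On each morphant array 3 of 4 thus lay within 0.2 of each other and the other spot was brighter. The log2 fold of the ratio was -0.39 from means and -0.30 from medians in lin-28a morphants (SD over spots 0.45), and -0.16 and -0.02 in lin-28b morphants (SD 0.57), so both were within the spot spread. In lin-28b morphants 2 of 4 positions were above control, and the lowest position set the mean below the median.

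Set beside each other, the star and main arms of miR-17a differed in log2 fold by 0.95 in lin-28a morphants from means, with a combined spot SD of 0.76, and by 0.52 from medians. In lin-28b morphants the star arm minus the main arm was 0.13 from means and -0.02 from medians (SD 0.57). For miR-18b the star arm minus the main arm was -0.44 (lin-28a MO) and -0.57 (lin-28b MO) from means, with SDs of 1.25 and 0.88, and 0.07 and -0.11 from medians. Of these 4 differences in the ratio only that of miR-17a in lin-28a morphants exceeded its spot SD, and from medians none did. Without spot position 3 that difference was 0.47, within the SD. With Hy3 alone, from means, the difference for miR-17a was 0.28 (lin-28a MO) and -0.93 (lin-28b MO). For miR-18b it was -1.31 and -0.39. From Hy3 medians these 4 were 0.08, -1.01, 0.06 and 0.50. The SDs given are of ratios, and none was computed for Hy3. On the lin-28b MO array, Hy3 changed by a median of -1.15 over the bright unnamed probes and -0.09 over all named probes. On the lin-28a MO array these were -0.31 and -0.10. The part of this in the differences was not tested. Because the signals of different probes are not on a common scale, the levels of the 2 arms give no ratio between them. The Hy3 spots of miR-17a, from 11.8 to 16.7, were also near the median unnamed probe (14.0, 13.6 and 16.1). Those of miR-17a* ran from 98.3 to 392. The difference thus sets a bright probe beside a dim one, and whether the dim one can follow a change was not tested.

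**Figure D2:**
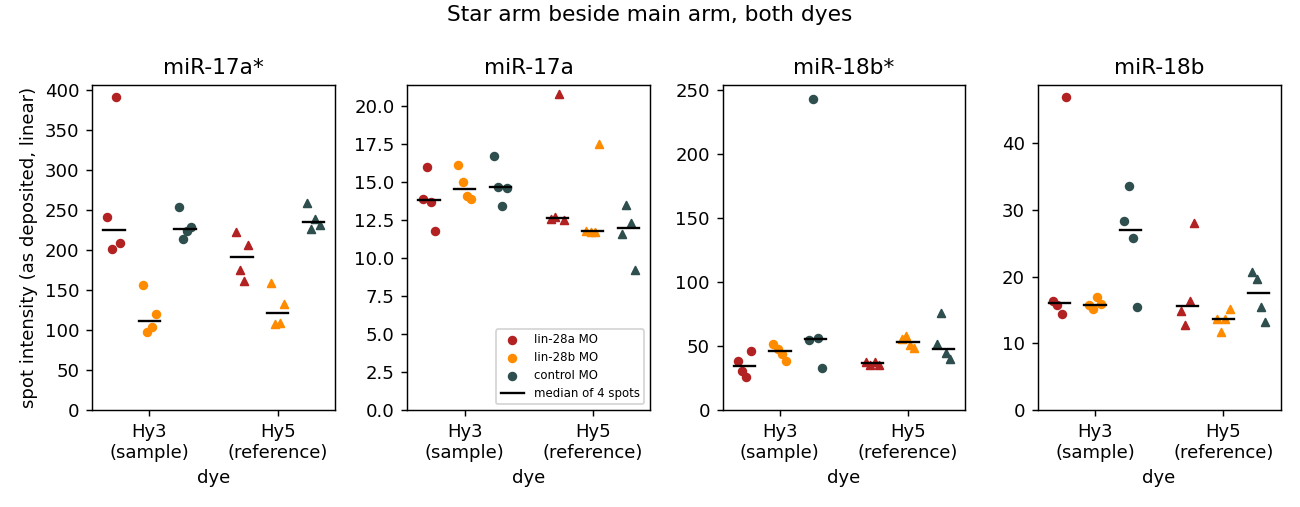
Spot intensities of the star arms miR-17a* and miR-18b* beside their main arms miR-17a and miR-18b, Hy3 (sample, circles) and Hy5 (reference, triangles), on the lin-28a MO, lin-28b MO and control MO arrays, with the median of 4 spots as a line and a separate linear axis for each probe. Both dyes of miR-17a* are lower in lin-28b morphants than in control, and 1 Hy3 spot of miR-18b* is at 243 on the control MO array.

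The second star arm, miR-18b*, had the lowest log2 folds of the 8 by means, -0.71 (lin-28a MO) and -0.90 (lin-28b MO), and 1 control spot made up much of them. Its Hy3 spots read 38.4, 30.3, 26.2 and 46.2 in lin-28a morphants, 51.4, 48.0, 43.7 and 38.5 in embryos with lin-28b MO, and 54.7, 243, 56.5 and 32.7 in control. The second control spot stood at 4.37 times the median of its probe in Hy3 and 1.58 times in Hy5. Without that spot position the log2 folds from means were -0.064 and -0.28. The ratios were 0.969 ± 0.254 in lin-28a morphants, 0.852 ± 0.055 in lin-28b morphants and 1.59 ± 1.09 in control, with medians of 0.941, 0.842 and 1.16. From the medians the log2 folds were -0.31 and -0.47, and spot ranges overlapped between either morphant and control. The SD over spot positions was 1.09 and 0.87. Its Hy5 signal was lower on the lin-28a MO array without overlap, at 34.9 to 37.9 against 39.9 to 75.9 on the control MO array, as for 8.72% of the 218 probes.

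In lin-28a morphants the main arm miR-18a had the lowest log2 fold of the 8 members by medians. The 4 spot ratios of miR-18a were 0.672, 0.676, 0.802 and 0.693 in lin-28a morphants, 0.783, 0.771, 0.995 and 0.724 in embryos with lin-28b MO, and 1.08, 1.09, 1.02 and 0.917 in control. All 4 spots on the lin-28a MO array were below all control spots, as for 18.3% of the 218 named probes, while those of the lin-28b MO array overlapped with control. Its log2 folds were -0.53 from means and -0.62 from medians in lin-28a morphants (SD 0.18), and -0.33 and -0.44 in lin-28b morphants (SD 0.21). Its signal was low, with a median Hy3 of 8.05, 8.59 and 10.2 on the lin-28a MO, lin-28b MO and control MO arrays. Its median log2 change in lin-28a morphants was -0.34 in Hy3, beside -0.31 for the bright unnamed probes, and 0.27 in Hy5, and in lin-28b morphants it was -0.25 in Hy3 and 0.18 in Hy5, with ranges that overlapped control in each dye. There 1 spot of 19.6, at 2.28 times the median of its probe, put the mean Hy3 change at 0.09 instead. With Hy3 alone, scaled on bright probes, the log2 fold of miR-18a from means was 0.038 (lin-28a MO) and 1.21 (lin-28b MO). That scaling put the median of all named probes at 0.25 and 1.03, above 0 as well. The value of miR-18a for lin-28b MO includes the spot of 19.6. In lin-28a morphants its Hy5 spots, 11.7, 11.7, 12.3 and 11.8, all lay in the narrow band of dim Hy5 signals.

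For miR-18b the ratio was 1.23 ± 0.34 in lin-28a morphants, 1.18 ± 0.11 in lin-28b morphants and 1.48 ± 0.26 in control. Its log2 folds were -0.27 from means and -0.38 from medians in lin-28a morphants (SD 0.60), and -0.33 and -0.35 in lin-28b morphants (SD 0.13), where all 4 positions were below control but the ranges overlapped. Centring on the bright unnamed probes or on all named probes moved the value from means in lin-28b morphants to -0.19 or -0.18. The Hy3 signal of miR-18b read 16.3, 15.8, 14.4 and 47.0 in lin-28a morphants, 15.7, 15.1, 16.9 and 15.9 in embryos with lin-28b MO, and 28.3, 33.6, 25.8 and 15.4 in control. In Hy3 alone, then, 3 of 4 control spots were above every lin-28b MO spot, and the fourth was not. The median log2 change in Hy3 was -0.75 and -0.78 in lin-28a and lin-28b morphants, but -0.14 from means in lin-28a morphants, where the spot at 47.0 was 2.93 times the median of its probe.

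The miR-18c probe, for a miRNA of another locus, had a ratio of 1.88 ± 0.34 in lin-28a morphants, 1.66 ± 0.28 in lin-28b morphants and 2.19 ± 0.38 in control. Its Hy3 signal varied little, between 24.8 and 27.0 in lin-28a morphants, 26.1 and 27.0 in embryos with lin-28b MO, and 25.4 and 30.7 in control. The log2 fold was -0.22 from means and -0.23 from medians in lin-28a morphants (SD 0.46), and -0.40 and -0.44 in lin-28b morphants (SD 0.08). Centring on the bright unnamed probes or on all named probes moved the value from means in lin-28b morphants to -0.27 or -0.25, by more than that SD. All 4 spots of miR-18c were below their control positions in lin-28b morphants, although the ranges overlapped, and there the median change was -0.04 in Hy3 and 0.38 in Hy5. The sample dye was thus nearly level there and the reference dye brighter.

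Before any centring, the ratios of the last 2 main arms, from means or medians, differed from control by at most 0.29 on the log2 scale. The miR-92a ratio was 0.952 ± 0.105 in lin-28a morphants, 0.830 ± 0.040 in lin-28b morphants and 0.983 ± 0.112 in control, and its log2 folds from medians were -0.09 and -0.29 (-0.05 and -0.24 from means). The SD over spot positions was 0.21 and 0.18. In lin-28b morphants 4 of 4 positions were below control, with overlapping ranges of the ratio. Centring on the bright unnamed probes or on all named probes put the value from means there at -0.11 or -0.09. Hy3 at miR-92a was 23.3, 22.7, 24.3 and 23.2 in lin-28a morphants, 30.5, 26.3, 26.3 and 23.0 in embryos with lin-28b MO, and 32.1, 27.2, 37.0 and 20.5 in control, with overlapping ranges. The miR-93 ratio was 1.86 ± 0.19 in lin-28a morphants, 1.52 ± 0.30 in lin-28b morphants and 1.62 ± 0.10 in control. Beside miR-17a*, miR-93 was the only member with a log2 fold above 0 in lin-28a morphants before any centring, 0.20 from means and 0.19 from medians (SD 0.11), with 4 of 4 positions above control and overlapping ranges. Centring on the bright unnamed probes or on all named probes moved the value of miR-93 from means in lin-28a morphants to 0.27 or 0.35. In lin-28b morphants the log2 folds of miR-93 were -0.10 and -0.11 (SD 0.20), and centring moved the value from means to 0.04 or 0.05.

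**Figure D3:**
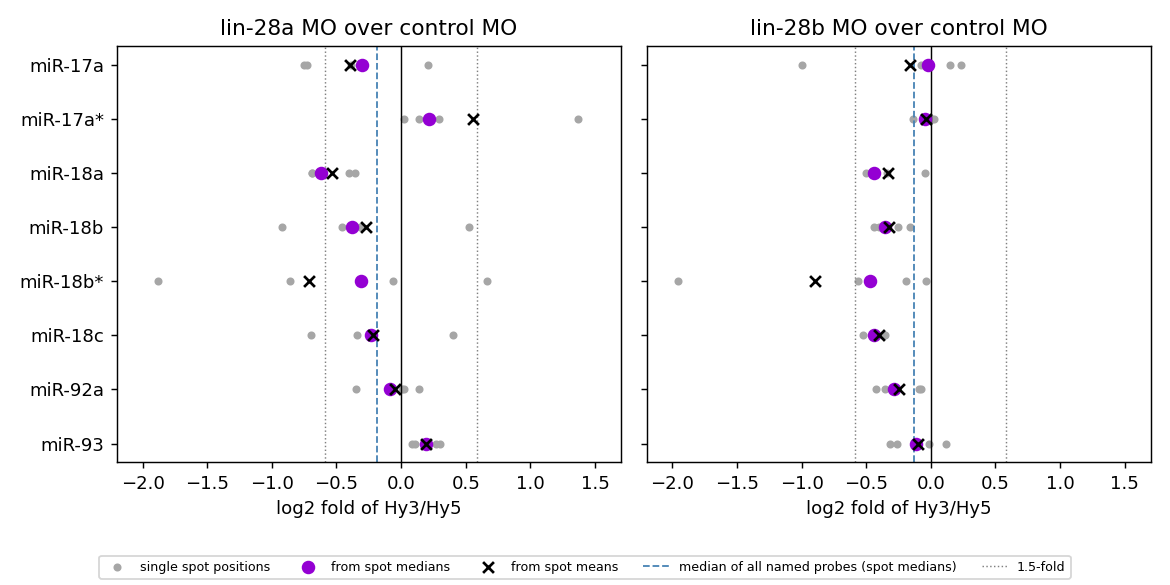
Log2 fold of Hy3/Hy5 over control MO for the 8 probes in lin-28a morphants (left) and lin-28b morphants (right), from spot means (crosses) and spot medians (large points), with each spot position in grey. The dashed line is the median of the 218 named probes (-0.18 and -0.13) and the dotted lines mark 1.5-fold. In lin-28a morphants means and medians part most at the 2 star arms, and only miR-18a in lin-28a morphants passes 1.5-fold by medians.

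As a set, the members lay a little below control, and so did the named probes as a whole. In lin-28a morphants 6 of 8 had a log2 fold below 0, from means and from medians, with a median of -0.25 and -0.27 over the 8, where all 218 named probes had medians of -0.15 and -0.18 and 71.1% and 72.9% of them were below 0. In lin-28b morphants 8 of 8 were below 0, with medians of -0.28 and -0.32, against -0.15 and -0.13 over the 218 probes, of which 69.7% were below 0 by either summary. Relative to those shifts, 5 of 8 members were below and 3 above the median named probe in lin-28a morphants, from means and from medians. In lin-28b morphants 6 were below and 2 above from means, and 5 and 3 from medians. The control MO array is shared by the 2 comparisons. Centring the arrays on all named probes gives, by construction, the same counts as those from means. With means centred on the bright unnamed probes, 5 and 3 members were below and above 0 for lin-28a MO, and 6 and 2 for lin-28b MO. With spot medians so centred, the split into members below and above 0 was 6 and 2 (lin-28a MO) or 5 and 3 (lin-28b MO). With Hy3 alone, scaled on bright probes, it was 1 and 7 (lin-28a MO) or 0 and 8 (lin-28b MO), with medians over all named probes of 0.25 and 1.03.

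The other 12 probes named for the cluster and its paralogs, of miR-19, miR-20, miR-25, miR-92b and miR-363, were dim as well, with a mean Hy3 between 5.11 and 27.1 over the arrays. Their log2 folds from medians lay between -0.61 and 0.11 in lin-28a morphants, with 9 of 12 below 0, and between -0.59 and 0.24 in lin-28b morphants, with 6 of 12 below 0. The lowest of them in both was miR-20a*, the star arm of a hairpin in the locus of miR-18a, at -0.61 and -0.59 from medians and -0.59 and -0.57 from means, named here after its values were seen. Its ratio was 0.849 in lin-28a morphants, 0.859 in lin-28b morphants and 1.28 in control, at a mean Hy3 of 10.5, 11.3 and 13.7. Profiles of log2(Hy3/Hy5) over the 3 arrays were set beside that of miR-17a* among the 9 named miRNAs, itself included, that passed a Hy3 of 100 on any array. The nearest was let-7c, at a Euclidean distance of 0.66 from means and 0.45 from medians. It was followed by miR-203a at 0.80 and 0.62 and miR-430a at 0.96 and 0.70. The distance takes in the level of the ratio as well as its change. From means the let-7c ratio was 0.933 in lin-28a morphants, 0.795 in lin-28b morphants and 1.03 in control. The ratios of let-7c, miR-203a and miR-430a were thus lower than control in lin-28a morphants, where that of miR-17a* was higher. All other miRNAs of the 9 were lower there too, from means and from medians, so this direction is not particular to the nearest ones.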

How the data were processed

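Embryo RNA of the 3 groups (Hy3) was hybridized beside a Universal Reference (Hy5) on miRCURY LNA arrays, with 1 array for each group. The table of spots deposited by the authors gives an intensity in each dye for 9984 spots per array. The authors' second table holds the linear Hy3/Hy5 ratio of 7 of the 8 members, and matches the mean ratio of the 4 spots within 0.246%. The sources used here do not state how images were read, background was corrected or signals were normalized, and no further scaling was applied. A fold is the mean (or median) spot ratio of a morphant over that of control MO, as log2. Spot positions were paired by their order in the table. The number of arrays limits precision, and no test was run. Alternatives were spot medians, summed intensities, leaving out each spot, Hy3 alone, centring, the authors' table and other limits. The members and lists were chosen with earlier results of these data known, and all 8 members are named. Beyond them, miRNAs are named for the profiles nearest to that of a bright member, and miR-20a* for its fold, after its values were seen. The computation was tested on simulated data. Python 3.11.15 was used with numpy 2.4.6 and pandas 2.3.3.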

Additional observations from a re-analysis of the deposited data

Results flagged for a closer look

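In 2 of 24 sets of 4 spot ratios (8 probes on 3 arrays), 1 spot stood apart from the other 3 by Dixon's criterion for 4 values, which by chance flags about 1 set in 20, and spots of a probe are not separate samples. On the lin-28a MO array, the highest spot of miR-17a* had a ratio of 2.42, a gap to the nearest spot of 0.897 of the whole range. On the same array, the highest spot of miR-18a had a ratio of 0.802, a gap of 0.835 of the range. The second control spot of miR-18b*, at a ratio of 3.20, was not past the criterion.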

How the results depend on the processing

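In lin-28a morphants, the count of members past 1.5-fold, 0 as reported, was 1 after centring on bright unnamed probes and 1 after centring on all named probes (miR-17a* higher, log2 folds of 0.63 and 0.71), and 1 by spot medians with no Hy3 limit (miR-18a lower), a setting added with the values in view. Spot medians centred on bright unnamed probes, also added then, gave 0.28 for miR-17a* and -0.56 for miR-18a, neither past 1.5-fold. Leaving out each spot in turn gave counts from 0 to 1 and log2 folds of miR-17a* from 0.15 (without position 3) to 0.70 in lin-28a morphants. The counts of 0 without position 1 or 2 say nothing, since no member could be judged there and the fold was past 1.5. In lin-28b morphants the count, 0 as reported, was 1 with unscaled Hy3 alone (miR-17a* lower, at -0.94) and 0 under every other alternative run. The log2 fold of miR-17a* there, -0.04 as reported, was 0.10 and 0.11 after centring on bright unnamed and on all named probes, 0.17 by Hy3 alone when scaled, and 0.13 by spot medians centred on bright unnamed probes, again added later. Its difference from miR-17a with Hy3 alone was 0.28 (lin-28a MO) and -0.93 (lin-28b MO), against 0.95 and 0.13 as reported. Scaling cancels in this difference. On the lin-28b MO array the unscaled Hy3 change had a median of -1.15 over bright unnamed probes and -0.09 over all named probes. The difference of miR-18b* from miR-18b with Hy3 alone in lin-28a morphants was -1.31, against -0.44 as reported. The spot SDs are of ratios, and none was computed for these Hy3 differences. Scaling Hy3 on 51 bright probes put 7 of 8 members above control for lin-28a MO and 8 of 8 for lin-28b MO (miR-17a at 0.24 and 1.11), where the median named probe stood at 0.25 and 1.03. No paired analysis was possible because each group has 1 array. Signal limits all members but miR-17a*, whose Hy3 alone passed 100.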
